A study of Mus musculus with 2 samples.

Results

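The genes described here are 7 genes of thyroid hormone (TH) reception, transport and deiodination in mouse liver: the receptors Thra and Thrb, the deiodinase Dio1, the plasma carrier Ttr, the cytosolic binding protein Crym, the membrane transporter Slc16a10 and the TH-induced gene Bcl3. They were chosen by name, with earlier results of these data known. Every probe whose transcript carries one of these symbols was used, which gave 12 probes for the 7 genes among 20652 genes named on the array. All 12 probes were well above the local background on both arrays. The livers came from male C57BL/6J mice, which the methods give as about 8 to 12 weeks old for all mice of the study, with no transgene or drug named for these groups. In the fasting group food had been withheld overnight for 14 to 16 h (16 h in one label), and the feeding group is described in one label as given food after the fast and in another as having free access to food, so the length of feeding is not known. For each group the liver RNA of 3 mice was pooled and hybridised to 1 single-colour Agilent array.

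With 1 array per group and pooled animals, nothing replicated the comparison of fasting with feeding, so it was not tested and has no p-value. A gene is said to have risen or fallen only where it differed at least 2-fold, the threshold in the methods of the study, and this is a rule of size and not a test. The error after ± beside a signal is the one that the extraction software gives for the single spot. Beside a log2 change or a gap between probes, it was combined from the errors of the spots involved. Neither kind holds the spread between mice or that between arrays. RNA of whole liver was measured, so fewer cells of a type and less RNA per cell cannot be told apart.

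Thyroxine (T4) is a prohormone that enters cells through membrane transporters, is carried in plasma by binding proteins such as transthyretin, and is converted by deiodinases to T3, the ligand of the nuclear TH receptors. The receptors bind DNA as heterodimers with retinoid X receptors, commonly at repeats of the half-site AGGTCA, and exchange corepressors for coactivators when T3 is bound. TRβ, the product of Thrb, is the main receptor isoform of hepatocytes, whereas TRα, the product of Thra, dominates in tissues such as heart and bone.

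The sequences around the start sites of Bcl3 and Thrb are shown because Bcl3 was the member with the largest change and Thrb encodes the main hepatic receptor. They are from RefSeq, build GRCm38.p6, and each is 300 bases in the direction of transcription, with 250 bases before the start and 50 from the start on. Capitals mark a match, on either strand, to one of 4 motifs: the half-site AGGTCA, its direct repeat spaced by 4 bases, the E-box CACGTG, and the NF-kappaB consensus.
Bcl3, chr7:19822706-19823005, minus strand: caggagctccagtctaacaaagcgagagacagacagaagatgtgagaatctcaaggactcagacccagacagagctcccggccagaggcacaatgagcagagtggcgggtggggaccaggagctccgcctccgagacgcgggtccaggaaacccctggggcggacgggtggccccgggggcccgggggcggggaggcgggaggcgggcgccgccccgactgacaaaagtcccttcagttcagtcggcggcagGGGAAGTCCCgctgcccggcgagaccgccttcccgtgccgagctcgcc
Thrb, chr14:17660710-17661009, plus strand: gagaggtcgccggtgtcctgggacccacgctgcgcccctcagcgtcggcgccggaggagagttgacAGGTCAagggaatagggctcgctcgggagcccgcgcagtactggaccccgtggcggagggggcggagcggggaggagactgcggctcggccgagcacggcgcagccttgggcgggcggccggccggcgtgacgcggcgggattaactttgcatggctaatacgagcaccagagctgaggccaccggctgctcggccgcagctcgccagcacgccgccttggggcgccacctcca
Thrb, chr14:17981394-17981693, plus strand: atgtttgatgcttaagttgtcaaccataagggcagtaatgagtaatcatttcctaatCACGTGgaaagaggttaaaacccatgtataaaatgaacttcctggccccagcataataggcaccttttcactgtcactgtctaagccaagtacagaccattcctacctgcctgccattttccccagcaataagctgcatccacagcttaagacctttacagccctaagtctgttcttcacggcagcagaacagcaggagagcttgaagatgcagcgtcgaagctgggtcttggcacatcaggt
The Bcl3 window held 1 NF-kappaB consensus, 2 bases after the start, and none of the other motifs. One start of Thrb had an AGGTCA half-site whose first base lay at -184 from the start, and the other had an E-box at -193. Matches of this kind are common, since 8.46% of the 32851 promoter windows in the table held the NF-kappaB consensus, 16.3% the half-site and 7.15% the E-box. The direct repeat, found in 0.0152% of windows, was in none of the 5 windows searched. The windows of Dio1 and Slc16a10 held none of the 4 motifs, and Thra, Crym and Ttr were not searched here. A match is a description of the letters and not evidence of binding.

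Among the 7 genes, Bcl3 was the only one whose brightest probe differed at least 2-fold between the arrays, and it was higher upon feeding. Over all 16346 genes measured on at least 1 array, 7.91% differed at least 2-fold, with 3.29% higher and 4.62% lower in the feeding group, and 1 gene of 7 does not set the members apart from these shares. Crym came next, 1.82-fold higher and short of the threshold, while both receptors, Dio1, Ttr and the brighter probe of Slc16a10 differed at most 1.37-fold. The median size of the change was 0.16 on the log2 scale for the 7 genes and 0.29 for the 15198 genes with a fold, whose median change was 0.01.

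**Figure D1:**
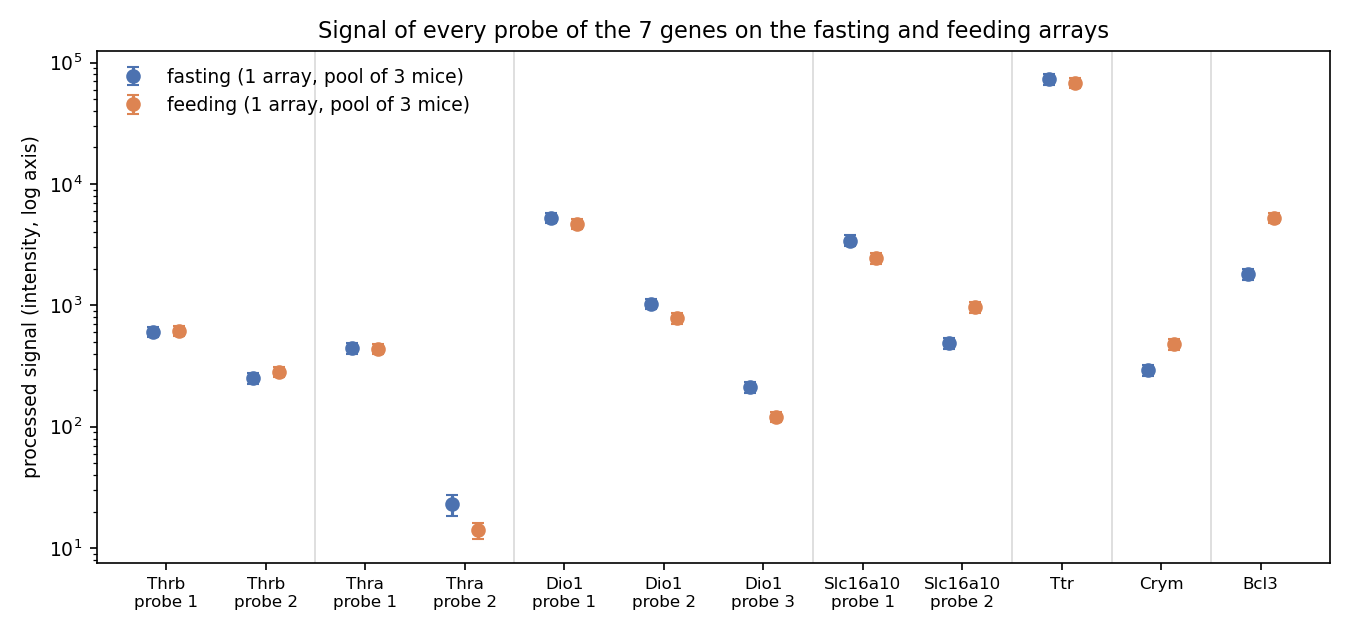
Processed signal (intensity after background subtraction, log axis) of the 12 probes of the 7 genes on the fasting array (blue) and the feeding array (orange), before normalization between the arrays, with bars for the spot error. The pairs of points lie close together for Thra probe 1, Thrb and Ttr, and stand clearly apart for Bcl3, Crym and the second probe of Slc16a10, each higher upon feeding. They also stand apart for the third probe of Dio1 and the dim second probe of Thra, each lower upon feeding.

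The receptor genes differed little between the groups. The brighter probe of Thrb read a processed signal of 608 ± 60.9 upon fasting and 620 ± 62.1 upon feeding. After quantile normalization, which brings the signals of the 2 arrays to the same distribution, the log2 change was 0.16 ± 0.20, or 1.11-fold higher upon feeding. The second Thrb probe gave 252 ± 25.5 and 283 ± 28.4, a log2 change of 0.34 ± 0.21. Both probes of the hepatic receptor gene thus lay slightly above 0, by less than 2-fold, and the first did so by less than its spot error.

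Thra gave 442 ± 44.4 upon fasting and 441 ± 44.1 upon feeding at its brighter probe, a log2 change of 0.16 ± 0.20. Its second probe was dim, with 22.9 ± 4.62 upon fasting and 14 ± 2.22 upon feeding, and its log2 change was -0.55 ± 0.37. The probes of Thra therefore differed in sign. Their gap of 0.71 on the log2 scale was matched or exceeded in 15.5% of the 3468 genes with at least 2 probes above background on both arrays, and it shrank to 0.14 with the normexp background correction, a model that keeps all corrected signals above 0. Thra and Thrb ranked 5459 and 5496 from the highest change among 15198 genes.

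The circadian repressors Nr1d1 and Nr1d2, which are genomic neighbours of Thra and Thrb in the RefSeq table, showed another pattern. Nr1d1, which overlaps Thra, gave 433 ± 43.5 upon fasting and 195 ± 19.6 upon feeding, a log2 change of -0.97 ± 0.20, just short of 2-fold. Nr1d2, beside Thrb, fell by 1.05 ± 0.20 on the log2 scale, from 3401 ± 340 to 1595 ± 159. The call of Nr1d2 held under quantile normalization alone among the 4 ways of processing: with the 75th percentile the values were -1.04 for Nr1d1 and -0.98 for Nr1d2, with median scaling -0.92 and -0.86, and with the normexp correction -0.75 and -0.98. Both were lower upon feeding in each case. The receptor genes beside them differed at most 1.32-fold in the 4 ways of processing at every probe but the dim one of Thra.

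Of 20 genes on a list of TH receptors, retinoid X receptors and their coregulators, 20 were measured and none was past 2-fold by its brightest probe. Their median change was -0.04 beside 0.01 for all genes. Over all genes measured 7.91% were past 2-fold, and none of 20 does not set the list apart from that share. With the mean of the probes of each gene, Rxrg passed, at 1.07. The lowest value was that of Ep300, a histone acetyltransferase and coactivator, with 658 ± 65.9 and 322 ± 32.3 and a log2 change of -0.89. Tbl1xr1, a subunit of the corepressor complex, followed with -0.82, and its second probe gave -0.26. The heterodimer partners gave 0.46 for Rxra, -0.40 for Rxrb and 0.39 for Rxrg, but a dimmer probe of Rxrg, with 254 ± 25.6 and 772 ± 77.2, gave 1.75, and a second probe of Rxra gave -0.33. A dimmer probe of the corepressor gene Ncor1 likewise gave 1.19 beside -0.14 at the brightest. In the other direction, the dimmest probe of the coregulator gene Med1, with 26.1 ± 4.02 and 11.2 ± 1.69, gave -1.07 beside -0.31 at the brightest.

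**Figure D2:**
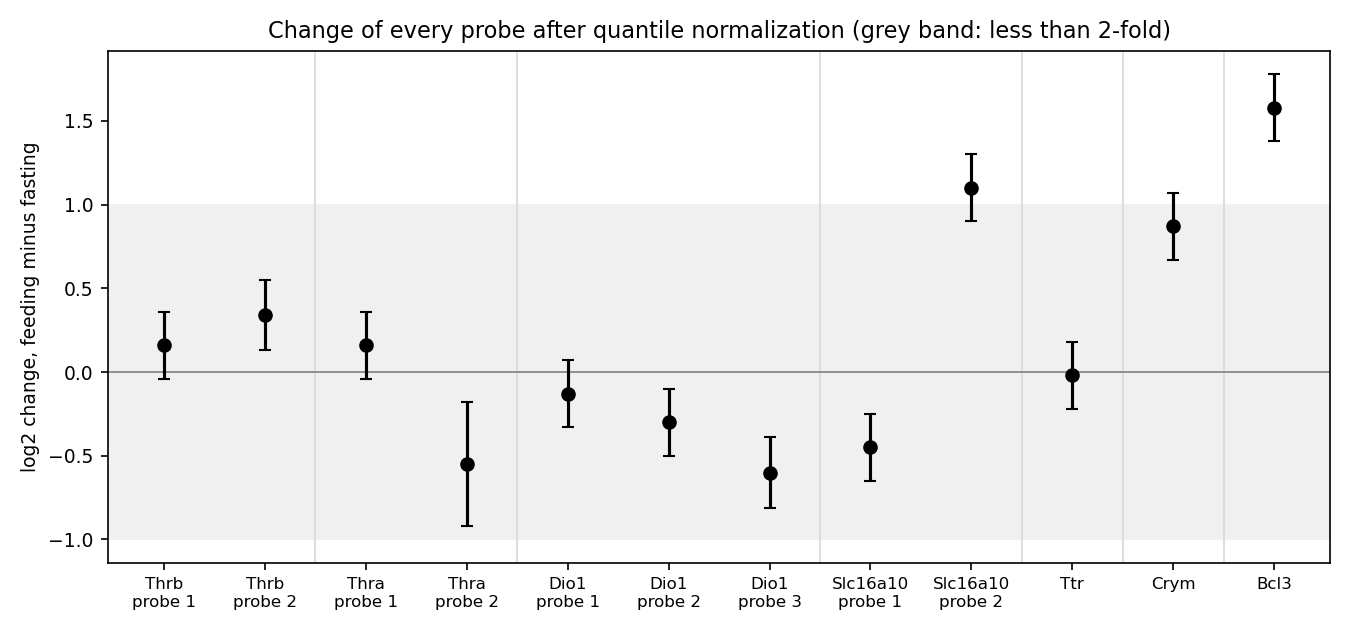
Log2 change, feeding minus fasting, of each probe of the 7 genes after quantile normalization, with bars for the spot error of the change and a grey band for less than 2-fold. Bcl3 at 1.58 and Slc16a10 probe 2 at 1.10 lie above the band, Crym at 0.87 lies near its edge, and the probes of Slc16a10 and of Thra fall on both sides of 0.

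Dio1 encodes the type 1 deiodinase, a selenoprotein that is abundant in liver, converts T4 to T3 and is itself induced by T3. Its brightest probe gave 5274 ± 527 upon fasting and 4690 ± 469 upon feeding, a log2 change of -0.13 ± 0.20. The second gave 1029 ± 103 and 781 ± 78.1, a log2 change of -0.30 ± 0.20. The third gave 211 ± 21.5 and 121 ± 12.2, a log2 change of -0.60 ± 0.21. All 3 probes were lower upon feeding by less than 2-fold, and the brightest, whose change was within its spot error, turned to 0.07 when the arrays were scaled by their medians. That scaling moved the median change of all genes to 0.13. The gap between the probes of Dio1 was 0.48, which 28.2% of genes matched or exceeded, and it was 0.64 with either scaling and 0.16 with the normexp correction.

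The other deiodinase genes, Dio2, which makes T3 from T4 in tissues such as brown fat and pituitary, and Dio3, which inactivates TH, were not well above background on either array. Of the list of deiodination and clearance genes, 8 of 11 were measured, 1 rose and none fell, with a median change of 0.01. The shares over all genes measured were 3.29% higher and 4.62% lower. The gene that rose was Sephs2, a selenophosphate synthetase that supplies the selenium for selenocysteine, from 166 ± 16.9 upon fasting to 542 ± 54.2 upon feeding. Its log2 change was 1.88 ± 0.21, or 3.68-fold, and 1.29 with the normexp correction. Other genes of selenocysteine synthesis and insertion did not pass: Pstk, a kinase for the selenocysteine transfer RNA, gave 1065 ± 107 and 1851 ± 185 and a log2 change of 0.86, which became 1.03 with median scaling. Secisbp2, which binds the selenocysteine insertion element, gave 559 ± 56 and 840 ± 84 at its brighter probe and log2 changes of 0.71 and 0.29. The elongation factor gene Eefsec gave 0.15. Sult1b1, a sulfotransferase of TH, gave -0.58, and Iyd, which recovers iodide from iodotyrosines, gave -0.12.

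Slc16a10 encodes the monocarboxylate transporter MCT10, which carries aromatic amino acids and iodothyronines across the membrane, and its probes disagreed. The brighter probe, assigned to transcript NM_001114332, gave 3422 ± 342 upon fasting and 2433 ± 243 upon feeding, a log2 change of -0.45 ± 0.20. The other probe, assigned to transcript NM_028247, gave 490 ± 49.1 and 962 ± 96.2, a log2 change of 1.10 ± 0.20, or 2.15-fold higher upon feeding. No direction can therefore be given for the gene as a whole.

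The gap of 1.55 ± 0.29 between the Slc16a10 probes was far above the median gap of 0.25, and only 98 genes, 2.83% of the 3468 genes with at least 2 such probes, had one as large. It was 1.47 with either scaling and 1.20 with the normexp correction, under which the second probe gave 0.82 and no longer passed 2-fold. The mean of the probes was 0.33 in place of -0.45. Where the probes lie in the transcripts is not given in the sources used here.

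Ttr, the plasma carrier made in large amounts by hepatocytes, was nearly level. Its signal was 73206 ± 7321 upon fasting and 68151 ± 6815 upon feeding, and its log2 change of -0.02 ± 0.20 became 0.01 or 0.13 with scaling by the 75th percentile or the median. Changes as large as that of Ttr were seen in 95.1% of genes. The other TH carriers of plasma gave log2 changes of 0.09 for Serpina7, which encodes thyroxine-binding globulin, and -0.07 for Alb, the albumin gene, which was 0.07 with median scaling.

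Crym encodes µ-crystallin, a cytosolic protein that binds T3. Its single probe gave 291 ± 29.3 upon fasting and 476 ± 47.7 upon feeding. The log2 change was 0.87 ± 0.20, a rank of 746 from the highest among 15198 genes, and 11.2% of genes had a change as large in either direction. It stayed short of 2-fold with each scaling, at 0.82 and 0.95, and was 0.59 with the normexp correction.

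On the list of TH transport and binding genes, 14 of 15 were measured and none was past 2-fold by its brightest probe. The share over all genes measured was 7.91%, from which none of 14 does not set the list apart. Crym was the highest of the list, 10 of the 14 genes lay below 0, and the median change was -0.06, which became 0.02 with median scaling. The lowest value was that of Slco1a4, an organic anion transporter, with 9029 ± 903 upon fasting and 5031 ± 503 upon feeding and a log2 change of -0.81. Slc17a4 gave -0.73 at its brighter probe and -2.49 at a dimmer one, which read 115 ± 11.9 upon fasting and 18 ± 2.21 upon feeding. The mean of its probes, -1.61, was past 2-fold.

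**Figure D3:**
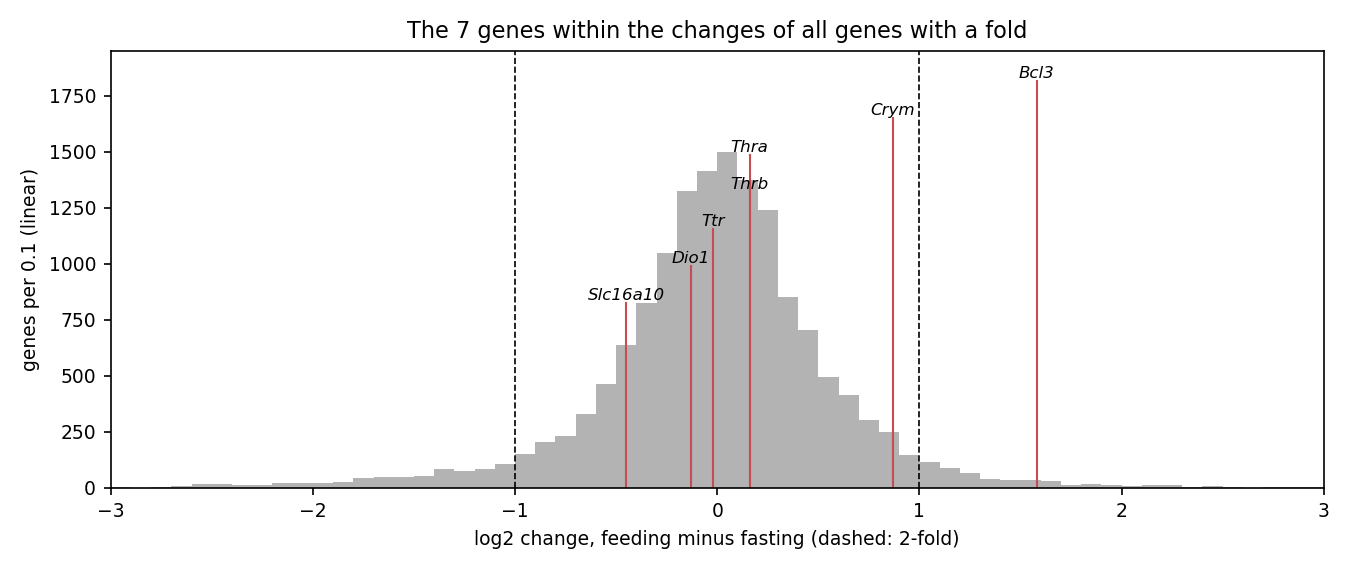
Histogram of the log2 change, feeding minus fasting, of the 15198 genes with a fold (linear axis, genes per 0.1), with red lines for the 7 genes and dashed lines at 2-fold. Bcl3 and Crym stand in the upper tail, and the other 5 genes lie between -0.45 and 0.16, within the bulk of the distribution; the heights of the red lines carry no value.

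Bcl3 encodes an atypical IkappaB protein of the nucleus that binds NF-kappaB p50 and p52 and can act as a coactivator, and it is known as a gene that T3 induces in liver. Its signal was 1815 ± 182 upon fasting and 5293 ± 529 upon feeding. The log2 change was 1.58 ± 0.20, or 2.98-fold, so Bcl3 rose upon feeding. It ranked 160 from the highest among 15198 genes, and 3.12% of genes changed as much in either direction. The value was 1.65 with the 75th percentile, 1.78 with median scaling and 1.46 with the normexp correction, past 2-fold in each. It rests on 1 probe with 1 spot on each array.

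The rise of Bcl3 had no counterpart past 2-fold among the other NF-kappaB and IkappaB genes. Of 11 genes on that list 10 were measured, and the 9 other than Bcl3 ranged from -0.62 to 0.30 by their brightest probes. Over all genes measured 7.91% differed at least 2-fold, and none of 9 does not set these genes apart from that share. Nfkbia, the NF-kappaB target that encodes IkappaBα, was the lowest, with 4899 ± 490 upon fasting and 3116 ± 312 upon feeding. Nfkbie was the highest by these probes, with 194 ± 19.7 and 207 ± 20.8. Nfkbib, with 0.22 at its brightest probe, gave 0.48 and 0.51 at dimmer ones. With median scaling it stood above Nfkbie, at 0.42 beside 0.33. Nfkb2, which encodes the precursor of p52, gave -0.53, and the median of the list, Bcl3 included, was -0.07.

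Bcl3 and Dio1 also stand on a list of 21 genes known to be induced by TH, all of which were measured. Of these, 6 rose, 8 fell and 7 were within 2-fold, with a median change of -0.07, and median scaling left 6 higher and 5 lower. Over all genes measured, 3.29% rose and 4.62% fell. This list was chosen with earlier results of these data known. Bcl3 was the third highest, after Fasn, which encodes fatty acid synthase (142 ± 14.6 upon fasting and 1036 ± 104 upon feeding, a log2 change of 3.02), and Thrsp, the lipogenic gene Spot14 (5326 ± 533 and 21530 ± 2153, a log2 change of 2.05). The other genes that rose were Acaca, which encodes acetyl-CoA carboxylase, with 1.22, Gpd2, the mitochondrial glycerol-3-phosphate dehydrogenase, with 1.20, and Idh3a, a subunit of isocitrate dehydrogenase, with 1.08. A second, dim probe of Acaca gave -0.41, and the mean of its probes, 0.40, was not past 2-fold. With the normexp correction Fasn was 2.24 and Idh3a, at 0.99, no longer passed.

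The genes of the same list that fell included Klf9, a transcription factor that glucocorticoids induce as well, from 807 ± 80.7 upon fasting to 75 ± 7.61 upon feeding, a log2 change of -3.27. The coactivator gene Ppargc1a gave -3.26, and the gluconeogenic genes Pck1 and G6pc gave -2.95 and -1.77. The normexp correction brought Klf9 to -2.13 and Ppargc1a to -2.45. Genes of fuel choice and fat oxidation followed, with -2.36 for Pdk4, -1.10 for Ucp2 and -1.07 for Cpt1a. The calls of the latter 2 genes ended with median scaling, at -0.94 for Ucp2 and -0.86 for Cpt1a, and that of Cpt1a also with the 75th percentile, at -0.99. The hormone gene Fgf21 lay at the 2-fold threshold, with 188 ± 19.2 upon fasting and 80.7 ± 8.2 upon feeding. Its call ended with median scaling, at a log2 change of -0.99, and with the normexp correction, at -0.43. Most of these 8 genes are also known to be induced by fasting. The list as a whole moved in both directions, with Dio1 among the 7 genes within 2-fold. Whether TH, fasting or feeding moved the genes of this list, those that rose as well as those that fell, was not tested.

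**Figure D4:**
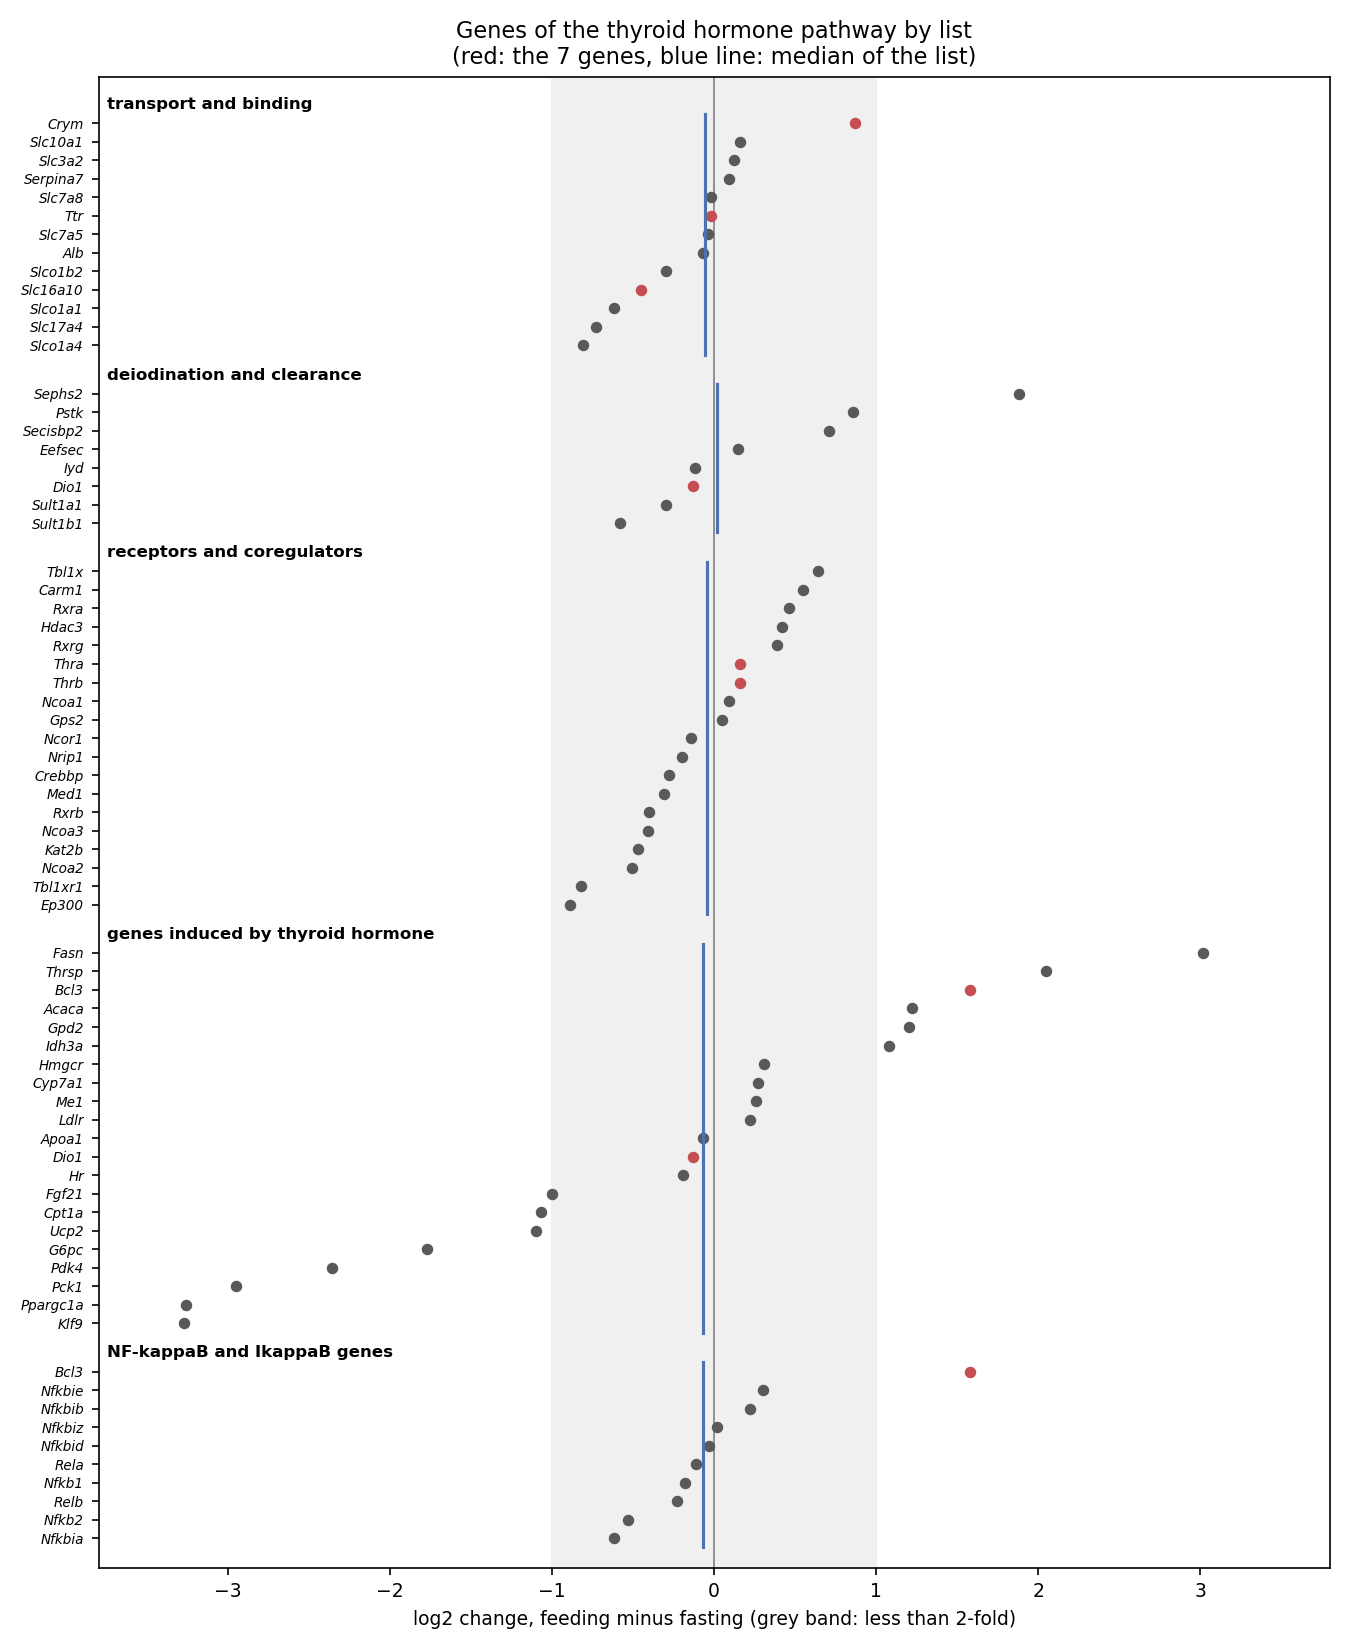
Log2 change, feeding minus fasting, of the measured genes of the 5 pathway lists that are reported here (points), with the 7 genes in red, the median of each list as a blue line and a grey band for less than 2-fold. The lists of transport and of receptors lie wholly within the band, with medians of -0.06 and -0.04, whereas the TH-induced genes spread from -3.27 for Klf9 to 3.02 for Fasn.

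Over the 5 lists, 71 of 76 distinct genes were measured and 15 were past 2-fold, of which 14 are on the list of TH-induced genes. Over all genes measured, 7.91% were past 2-fold. The lists were chosen with earlier results of these data known, so these counts are no test of them. As a check of the tissue, none of the 8 hepatocyte markers was past 2-fold and their median change was -0.07, with 7 of 8 below 0 and Tat, a glucocorticoid-induced aminotransferase gene, lowest at -0.97. Markers of macrophages had a median of -0.41, with 4 of 5 below 0 and a summed signal of 58861 upon fasting and 41821 upon feeding. Those of endothelial cells had a median of -0.35, with 5 of 5 below 0 and sums of 35391 and 27189, and Pecam1 fell by 1.04 on the log2 scale. Single markers of other cells were also past 2-fold. The cholangiocyte marker Sox9 rose with a log2 change of 2.11, in a list with a median of 0.08 and 2 of 5 genes below 0. The pancreatic marker Cela2a fell by 2.70 to a dim signal of 7.23, in a list with 2 of 3 genes below 0. The stellate cell marker Rgs5 was at least 5.68-fold lower upon feeding, with a list median of -0.40. In that list 2 of 4 genes lay above 0, and the summed signal was 2852 upon fasting and 3151 upon feeding. The part of these cells in the values of the 7 genes was not tested.

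The spread of the measurement itself could be followed at probes spotted at least 5 times on each array. The SD between the spots of a probe was taken within each array, and the SDs of the 2 arrays were combined into that of a difference. Its median over probes was 0.18 (log2) in the dimmest group of genes, where the second Thra probe belongs. It was 0.09 for the middle group, with Crym and the second probe of Slc16a10, and 0.08 for the brightest, with Bcl3, Ttr and the brightest probe of Dio1. This SD holds no spread between arrays or between mice. Processed signals had a median of 61.5 on the fasting array and 52.8 on the feeding array, where 63.1% and 72.3% of transcript spots exceeded background clearly. No spot was saturated, and the arrays shared 1 slide and 1 scan.

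**Figure D5:**
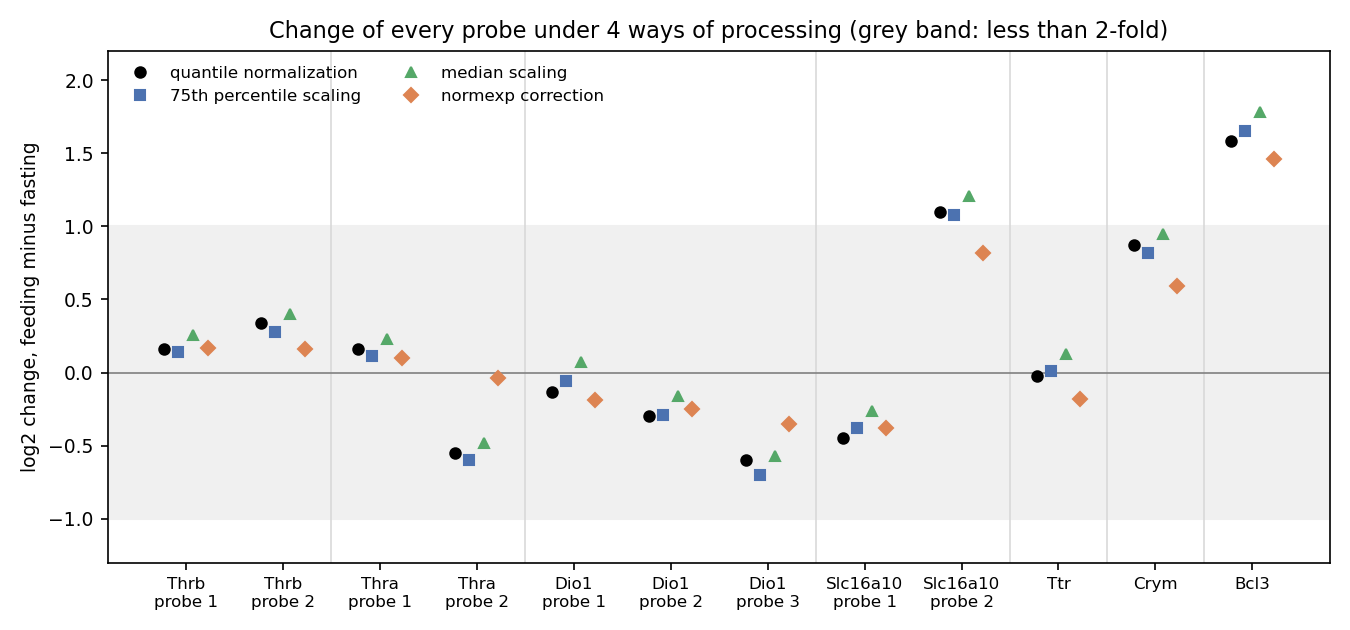
Log2 change, feeding minus fasting, of each probe of the 7 genes under 4 ways of processing: quantile normalization (black circles), scaling by the 75th percentile (blue squares), scaling by the median (green triangles) and the normexp background correction (orange diamonds), with a grey band for less than 2-fold. Bcl3 stays between 1.46 and 1.78, above the band, while the second probe of Slc16a10 drops from 1.10 to 0.82 with the normexp correction and Ttr crosses 0.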

How the data were processed

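Liver RNA of 2 groups, fasting and feeding, was measured on 1 array each. The authors labelled total RNA with Cy3 (Quick Amp kit), used the Whole Mouse Genome array and read spots with Agilent Feature Extraction 11.0.1.1 (the submitters' processing notes and file headers). The deposited values are intensities per spot, after background subtraction and before any normalization between arrays. The series value table equals the mean local background in 44397 of 44397 spots of both arrays (tolerance 1e-06) and was not used.

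Control spots (1377 per array) and outlier spots (123 upon fasting, 98 upon feeding) were left out. Spots of a probe were averaged as log2 processed signals, then quantile normalized (Python 3.11.15, numpy 2.4.6, pandas 2.3.3). Probes were named by RefSeq transcript in the GRCm38.p6 table, which matched 27218 of 39402 (69.1%). The array design names the older build mm9, so no probe coordinates are given. A gene was represented by its probe of highest mean signal and counted as measured if the software marked that probe as well above background on either array. Where it did so on 1 array only, the change was a lower bound, and a bound that turned the direction gave no fold. Genes were called at 2-fold with no test, and the number of arrays limits the precision.

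All probes of the 7 genes are named, and of each pathway list the genes past 2-fold or, where fewer than 3, those of largest change up to 3, with Nr1d1 and Nr1d2. Some genes that this rule or the lists hold are not reported here. Other genes were named after their values were seen. The members and lists were chosen with earlier results of these data known. As alternatives, arrays were scaled by the 75th percentile or median, corrected by normexp (offset 50, on the median signal and local background; R 4.3.3, limma 3.58.1), or summarised by the mean over probes, with other filters on dim probes, no lower bound, and thresholds of 1.5-fold and 3-fold. The calling procedure was tested on simulated data with planted changes and noise of the size of spot noise. The simulation held no spread between mice or between arrays, so it cannot show whether the 2-fold calls would repeat.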

Additional observations from a re-analysis of the deposited data

How the results depend on the processing

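Of the 49 values of the 7 genes under the alternatives, 37 moved by less than the SD of a difference at replicate spots. The other 12 moved by more. The 37 include values that could not move, so they overstate how stable the values were. The 12 all come from the values that were free to move. The other filters on dim probes and the omission of the lower bound could not change any value of these genes. All their probes had passed the background criterion in both groups. The mean over probes could not change Ttr, Crym or Bcl3, which have a single probe. Bcl3, the only called gene, kept its sign but moved by more than that SD with median scaling and with the normexp correction. Thra, Dio1, Ttr and Slc16a10 changed sign under some alternative. The median change of the 7 genes was 0.25 with the mean of the probes of each gene in place of 0.16. Members past 2-fold numbered 1, became 2 at 1.5-fold (with Crym) and 0 at 3-fold, and pathway genes past the threshold went from 15 to 26 at 1.5-fold and 8 at 3-fold. The share of all genes past the threshold was 21.1% at 1.5-fold, 2.87% at 3-fold and 3.23% with the normexp correction, where 215 were higher and 312 lower. Of the genes past 2-fold, 41.5% were higher upon feeding, 52.5% with median scaling and 53.5% without the lower bound. The cause of these shifts was not tested. Signal over background limits the second Thra probe most, and the Thra mean over probes was -0.20 in place of 0.16.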
